A study of Rattus norvegicus with 144 samples.

Results

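When the reads of rat brain libraries were assembled, many transcripts shared at least 1 splice junction with an annotated transcript but differed from it elsewhere. Such a transcript carries class code j in the assembler's comparison table and is called an unannotated isoform here. A transcript whose introns all match an annotated one carries class code = and is called annotated. The isoforms described here were chosen by their level: FPKM (fragments per kilobase of transcript, scaled to the mapped fragments of the library) had to exceed 1 for 6 or more rats out of 12, separately for all 4 groups of a region. This kept 1825 of 188622 unannotated isoforms for the prefrontal cortex (PFC), 1753 of 188667 for the hippocampus (HIP), and 1811 of 192150 for the striatum (STR). Level and detection were used in the choice, so their values are given as descriptions, and only differences between groups were tested.

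The 144 samples came from 3 regions of adult male rats, with 12 rats in each of 4 groups. By the study's methods the regions were taken from the same brains, so they share 48 rats, and no comparison between regions is one of independent animals. The labels number the samples of a group without naming a rat. F344 is an inbred strain, and the HIV-1Tg rat carries on that background an HIV-1 genome without gag and pol, driven by the viral long terminal repeat. Each strain received saline at 1 ml per kg (F344_Sal and HIV_Sal) or nicotine at 0.25 mg per ml (F344_Nic and HIV_Nic), injected under the skin 2 times a day for 17 days. Tissue was taken as punches from slices, so each library mixes neurons and glia, and fewer cells of a type cannot be told apart from less RNA per cell. All rats, controls included, had been through an earlier behavioural experiment. The tables pair no Ensembl gene with a name, so the labelled regions were not checked against marker genes.

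Alternative splicing joins the exons of a gene in different combinations, and alternative starts and polyadenylation sites change the ends of a transcript. Brain tissue is known for extensive use of both, including long 3' untranslated regions in neurons. An assembler builds transcripts from spliced reads and then divides the reads of a gene among the transcripts it built, so the levels of the isoforms of a gene depend on one another.

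Some libraries stood apart. A PFC library held a median of 1451 of the 1825 kept isoforms, but HIV_Nic rats 10 and 11 held 875 and 1229. Among HIP libraries, HIV_Nic rat 4 held 1235 of 1753, where the median was 1389. F344_Sal rats 8, 10, 11, and 12 of the HIP were also low, with 1293, 1253, 1298, and 1294. The ratio of read coverage to FPKM, a relative measure of depth, was above 3 in 6 PFC libraries (F344_Nic rats 4 and 8, F344_Sal rat 9, and HIV_Sal rats 1, 2, and 3). It was also above 3 in STR libraries HIV_Nic 6 and 7, and it reached 2.47 among HIP libraries.

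Most unannotated isoforms were seen once. Of all class code j rows, 65.0%, 65.0%, and 65.1% (PFC, HIP, and STR) had a value in 1 of the 48 samples. The kept isoforms were assembled in a median of 38 of 48 samples in each region, with quartiles of 33 and 43. Those assembled in all 48 samples numbered 78, 97, and 99 (PFC, HIP, and STR). The median of their median FPKM was 6.91 for the PFC (quartiles 3.67 and 13.4), 7.87 for the HIP (4.19 and 15.4), and 7.28 for the STR (3.99 and 13.8). At the edge of the rule, the 448 PFC isoforms with exactly 6 rats above the limit in their lowest group had a median of 4.89 FPKM and 31 samples. The 551 just outside, with 5 rats, had 4.74 FPKM and 27 samples.

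In most of their genes the unannotated isoforms carried a large part of the expression. The share is the isoform's FPKM over the summed FPKM of all class code j and = transcripts of the same Ensembl gene. Per isoform, the median share over samples in which it was assembled was 56.1% for the PFC (q25 38.1%), 54.1% for the HIP (q25 37.0%), and 56.3% for the STR (q25 37.9%). The isoform held more than 50% for 1051 of the 1817 PFC isoforms whose gene has an annotated row, for 966 of 1744 HIP isoforms, and for 1035 of 1797 STR isoforms. It held more than 90% for 374, 343, and 361 of them. The histogram of shares has a separate peak at the upper end, where all of the gene's FPKM went to the unannotated isoform in the median sample (364, 331, and 345 isoforms).

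**Figure D1:**
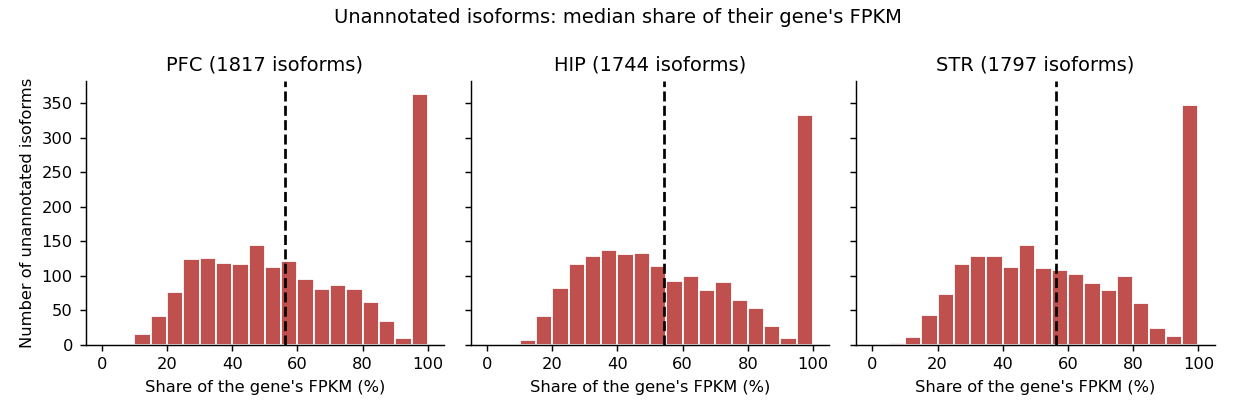
Histograms of the median share (x axis, percent of the gene's FPKM, bins of 5 points) of the kept unannotated isoforms in each region, with the number of isoforms on the y axis and the median as a dashed line. The medians lie at 56.1% (PFC), 54.1% (HIP), and 56.3% (STR), and each region has a second peak near 100%.

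The annotated transcripts of these genes were often listed at 0. Their summed FPKM was at most 0.01 in more than 24 of the 48 samples for 796 PFC (43.8%), 683 HIP (39.2%), and 751 STR (41.8%) isoforms. For 65, 63, and 71 isoforms it was at 0 in all 48 samples. By gene, 777 of 1722 PFC genes (45.1%), 664 of 1652 HIP genes (40.2%), and 736 of 1703 STR genes (43.2%) had a median annotated FPKM under 1.

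Both forms were present in 42.1% of the isoform and sample pairs of the PFC, the unannotated form alone in 36.6%, the annotated form alone in 15.7%, and neither in 5.58%. The SD of log2(FPKM + 0.1) within groups had a median of 0.33, 0.30, and 0.33 (PFC, HIP, and STR) for the gene's total and 0.48, 0.49, and 0.50 for the unannotated isoform over the samples in which it was assembled. For the annotated sum it was 1.80, 1.80, and 1.78, a size that depends on the 0.1 added, since these transcripts are often at 0. Over the 48 samples, Spearman's rho between the isoform's FPKM, set to 0 where not assembled, and annotated FPKM had a median of -0.37 over 1752 PFC isoforms, -0.37 over 1681 HIP isoforms, and -0.36 over 1726 STR isoforms. Over only the samples in which the isoform was assembled the medians were -0.26, -0.27, and -0.23. Both quantities share the reads of 1 gene and the depth of 1 library, so these values are a description.

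The kept isoforms were mostly longer than the annotated transcript they overlap. Assembled ends differed between samples, so the median length over samples was taken for the unannotated isoform and the commonest length for the annotated one. PFC isoforms had a median of 3238 bases (quartiles 1977 and 4997), against 2151 bases for their annotated transcripts. The medians were 3143 against 2112 bases for the HIP and 3210 against 2170 bases for the STR. Of the isoforms with both lengths, 1362 of 1803 PFC (75.5%), 1290 of 1733 HIP (74.4%), and 1309 of 1780 STR isoforms (73.5%) were longer. They exceeded the annotated length by more than 1000 bases in 40.0%, 37.0%, and 37.3%. The share of the gene had a median of 58.0% for PFC isoforms more than 1000 bases longer and 50.2% for the 441 that were not longer. Spearman's rho across isoforms between share and length difference was 0.12, 0.12, and 0.09 (PFC, HIP, and STR).

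**Figure D2:**
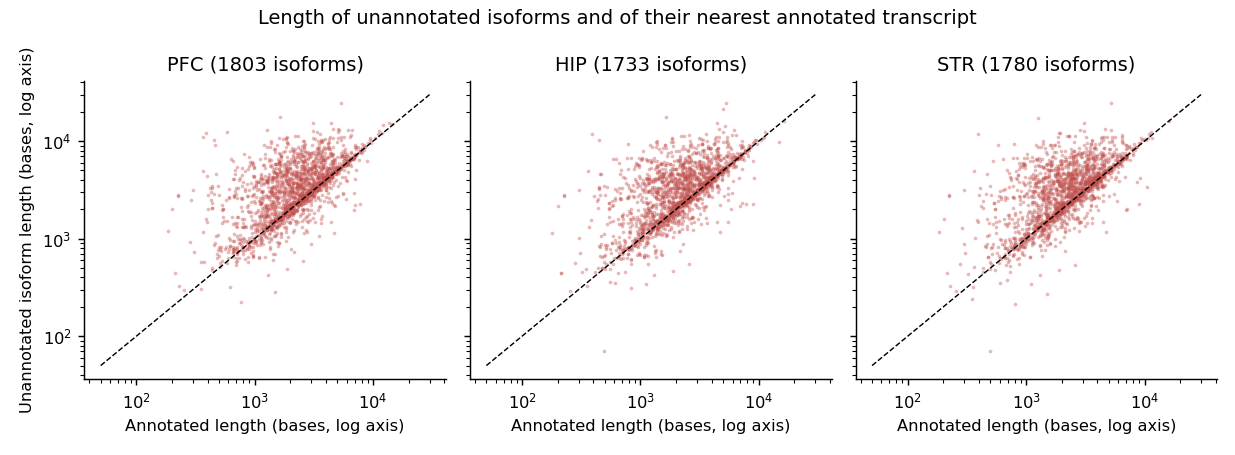
Each point is a kept unannotated isoform, with the length of its nearest annotated transcript on the x axis and its own median length on the y axis (bases, log axes), for the PFC, HIP, and STR. The dashed line marks equal lengths, and 75.5%, 74.4%, and 73.5% of the points lie above it.

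Genes with a kept isoform had a median of 9 class code j rows of any level, against 6 for the 8142 PFC, 8577 HIP, and 8684 STR genes that passed the same limit with annotated rows only. A single annotated transcript was listed for 60.7%, 58.8%, and 60.4% of the genes with a kept isoform and for 68.3%, 69.2%, and 69.3% of the other genes. Most genes had 1 kept isoform (1623 of 1722 for the PFC), 95 had 2, and 4 had 3.

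Many genes recurred between regions. Row numbers are not shared between the tables of different regions, so regions were joined by Ensembl gene. Of 2382 genes with a kept isoform in any region, 1067 had one in all 3, which is 62.0% of the PFC genes, 64.6% of the HIP genes, and 62.7% of the STR genes. Genes that met the rule in 1 region alone numbered 293, 228, and 233. Of these, 90, 70, and 86 had a class code j row in at least 24 samples of each other region too. Recurrence of annotated rows under the same limit was not counted, so these numbers have no background to be read against. Among 1049 shared genes with an annotated row, the share of the kept isoforms differed by a median of 4.64 percentage points between PFC and HIP, 4.69 between PFC and STR, and 4.15 between HIP and STR. The kept isoforms held more than 50% in all 3 regions in 516 genes and less than 50% in 329. They held all of the FPKM in the median sample of each region in 158. By the mean over the 3 regions, the lowest shares were in ENSRNOG00000007442 (12.7%, 11.1%, and 10.8%) and ENSRNOG00000027088 (12.1%, 11.8%, and 12.7%).

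The most abundant kept isoforms lay far above the rest. In PFC libraries, ENSRNOG00000016770 had a median of 428 FPKM over the 35 samples in which it was assembled (65.3 to 594), with its annotated transcript at 0 in 35 of the 48 samples. ENSRNOG00000018700 followed with 364 FPKM (221 to 696) in 33 samples. Both isoforms were more than 1000 bases longer than the annotated form, at 2640 against 1112 bases and 2415 against 1090 bases. In the other regions the highest value belonged to a class code j row of ENSRNOG00000036970 of only 71 bases. Its median was 10166 FPKM in 44 HIP samples (14.3 to 18864) and 16485 FPKM in 48 STR samples (24.4 to 32243). It was the only kept isoform under 200 bases in either region. Its annotated form, of 493 bases, had a median of 6.12 FPKM for the HIP and 7.68 for the STR. The part of its short length in this level was not tested.

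Wnt7a was the only gene linked to a name that had a kept isoform. The link was made by matching group means to those the study prints for the PFC. The PFC group pattern was thus part of the choice, and the PFC tests below are not independent of it. Wnt7a encodes a secreted Wnt ligand that acts in synapse formation and in blood vessel growth of the brain. Its gene (ENSRNOG00000007409) had 1 kept isoform in each region, of 3131 bases (PFC), 3137 (HIP), and 3144 (STR), against 1050 bases for the annotated transcript. The unannotated isoform was assembled in 42, 44, and 46 of the 48 samples. The annotated transcript was listed at 0 in the median sample of every group and region. PFC medians were 5.60 FPKM (F344_Sal, 5.09 to 6.26, 10 rats), 5.64 (F344_Nic, 5.14 to 6.68, 12 rats), 4.94 (HIV_Sal, 2.48 to 6.18, 11 rats), and 5.80 (HIV_Nic, 4.60 to 7.83, 9 rats), with 4 HIV_Sal rats below all rats of the other groups. The gene's total, with all class code j and = transcripts, had PFC medians of 5.70, 5.64, 5.43, and 5.76 FPKM in the same order. In HIV_Sal rats the lowest total was 4.14 FPKM, and the isoform's share fell as low as 44.1%. Among HIP libraries, the unannotated isoform had medians of 7.23 FPKM (F344_Sal, 5.57 to 8.59, 10 rats), 6.51 (F344_Nic, 6.19 to 7.23, 11 rats), 6.29 (HIV_Sal, 5.19 to 7.42, 12 rats), and 6.89 (HIV_Nic, 5.89 to 7.91, 11 rats). STR medians were 5.58 (F344_Sal, 4.34 to 7.77, 10 rats), 5.70 (F344_Nic, 5.03 to 9.94), 6.25 (HIV_Sal, 4.04 to 10.9), and 6.59 (HIV_Nic, 4.54 to 8.27), with 12 rats in each of the last 3 groups. The groups overlapped in each region. No Wnt7a comparison passed in any region at an adjusted p under 0.05 by limma. The study reported lower PFC expression in HIV_Sal than in F344_Sal rats, and higher expression in HIV_Nic than in HIV_Sal rats. Those comparisons of single groups were not fitted here. PFC levels differed by -0.14 between strains (log2, SE 0.09, adjusted p = 0.703 by limma) and by 0.20 with nicotine (SE 0.09, p = 0.0291 by limma before adjustment, adjusted p = 0.445). The PFC interaction was 0.36 (SE 0.18, p = 0.0457 before adjustment, adjusted p = 0.475 by limma), which met the study's looser limit of a fold change over 1.2 with p under 0.05 before adjustment. HIP levels differed between strains by -0.06 (log2, SE 0.05, adjusted p = 0.939 by limma), and STR levels by 0.11 (SE 0.09, adjusted p = 0.786). The HIP nicotine response differed between strains by 0.22 (SE 0.10, p = 0.0271 by limma before adjustment, adjusted p = 0.503). With samples in which the isoform was not assembled set to 0, direction turned for the PFC interaction (-1.62), the HIP interaction (-0.81), and the HIP strain difference (0.45).

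**Figure D3:**
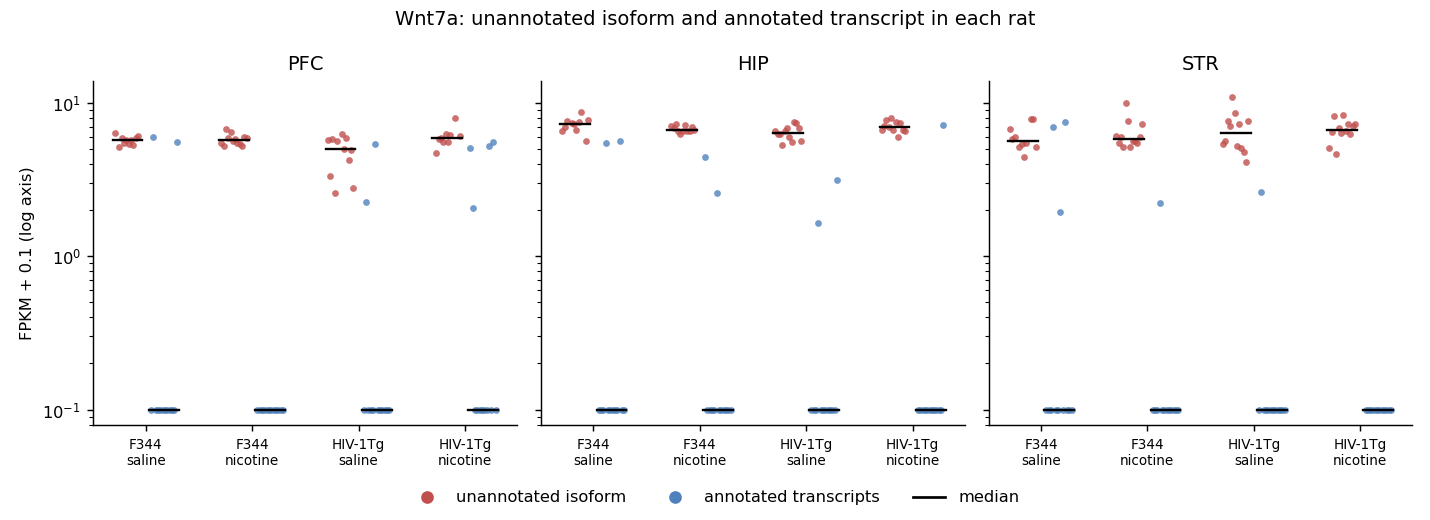
FPKM of Wnt7a plus 0.1 (y axis, log scale) in each rat of the 4 groups (x axis) in the PFC, HIP, and STR, with the unannotated isoform and the annotated transcript as separate points and black lines at the medians over samples with a value. The unannotated isoform lies between 2.48 and 10.9 FPKM wherever it was assembled, while the annotated transcript is at 0 in most rats.

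With all values in the fit, few kept PFC isoforms differed between strains or with nicotine. Levels were compared as log2(FPKM + 0.1) with limma in 1 fit of the 4 groups, over the 11275 unannotated and annotated rows that pass the rule. A strain difference is HIV-1Tg minus F344 over both drugs, a nicotine difference is nicotine minus saline over both strains, and the interaction is the nicotine response in HIV-1Tg minus that in F344. At an adjusted p under 0.05, 7 of 1825 kept isoforms differed between strains, against 2.52% of all rows tested. Of these, 3 were higher in HIV-1Tg (2.14% of all rows) and 4 lower (0.381%), and with median scaling 6 were higher and 4 lower. In each of the 3 higher isoforms the saline medians of the strains were close and the F344_Nic median was the lowest. Their strain difference over both drugs thus rests mainly on F344_Nic rats, and all 3 also passed for nicotine and for the interaction. With nicotine, 6 differed (2.39% of all rows), of which 1 was higher (0.222%) and 5 lower (2.17%). The interaction passed for 9 (2.88% of all rows), with 5 above 0 (2.64%) and 4 below (0.239%). The annotated rows gave most calls, with 277, 264, and 316 of 9450. The median log2 difference of the kept isoforms was -0.01, 0.01, and -0.05 for strain, nicotine, and interaction, and over all rows it was -0.02, -0.02, and -0.01. Without HIV_Nic rats 10 and 11 the strain count was 11 and the interaction count 14. With isoforms that were not assembled set to 0, each of the 3 counts was 4. Array weights gave 13, 12, and 12 (strain, nicotine, and interaction), and a term for coverage per FPKM gave 8, 5, and 17. With low values and outliers removed, the counts were 55, 36, and 39, of which 6, 5, and 9 were among the calls above.

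**Figure D4:**
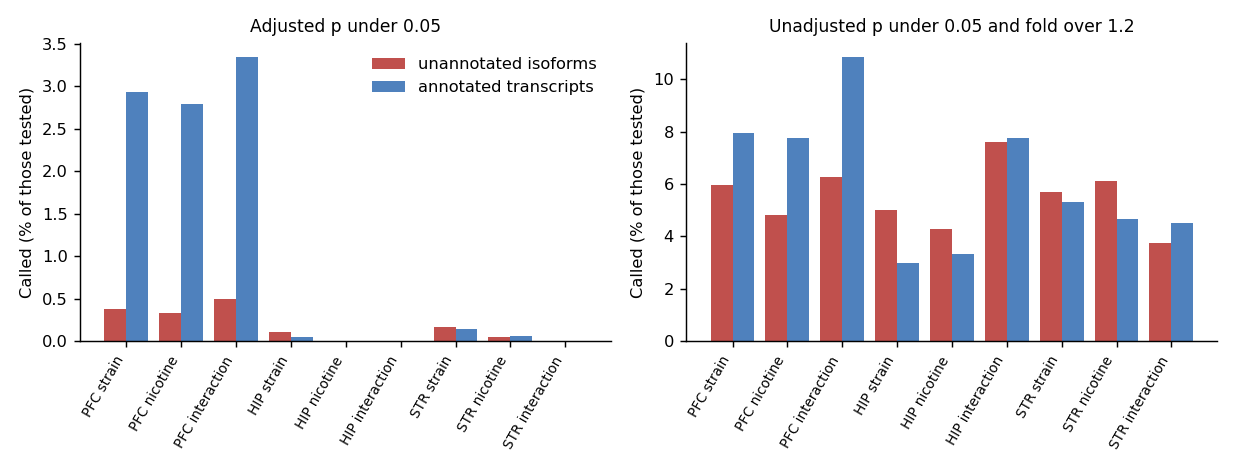
Bars give the percent of kept unannotated isoforms and of annotated transcripts called in each region and comparison (x axis), at an adjusted p under 0.05 (left) and at the study's looser limit, a fold change over 1.2 with p under 0.05 before adjustment (right). In the PFC the annotated transcripts reach 2.93%, 2.79%, and 3.34% on the left against 0.384%, 0.329%, and 0.493% of the unannotated isoforms.

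The PFC isoform with the smallest adjusted p in all 3 comparisons was low in 1 group, the F344_Nic rats. The unannotated isoform of ENSRNOG00000021280, assembled in all 48 samples, had medians of 21.5 FPKM (F344_Sal, 18.6 to 22.8), 3.07 (F344_Nic, 1.16 to 19.6), 20.8 (HIV_Sal, 15.8 to 25.9), and 18.2 (HIV_Nic, 16.0 to 21.2). Of the 12 F344_Nic rats, 10 lay below every rat of the other groups, and rats 4 and 8 lay among them, at 19.6 and 17.6. Its interaction was 2.26 (SE 0.35, adjusted p = 1.05e-05 by limma), its strain difference 1.09 (SE 0.17, adjusted p = 3.18e-05), and its nicotine difference -1.26 (SE 0.17, adjusted p = 3.83e-06). These 3 level calls held in the 13 alternative fits and without any single library.

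F344_Nic rats 4 and 8 stood out in the annotated transcripts of other genes with a kept isoform. For ENSRNOG00000031358 the unannotated isoform had medians of 1.85, 2.04, 1.97, and 2.03 FPKM (F344_Sal, F344_Nic, HIV_Sal, and HIV_Nic). Its annotated FPKM was 7.20 (F344_Sal, 6.06 to 10.95), 1.00 (F344_Nic, 0.576 to 6.15), 6.69 (HIV_Sal, 4.81 to 7.67), and 7.01 (HIV_Nic, 4.96 to 26.2). Again 10 F344_Nic rats lay below all others and rats 4 and 8 among them. For ENSRNOG00000013076 the annotated transcript was listed at 0 in all 24 HIV-1Tg rats and in 11 of 12 F344_Sal rats. It had a median of 9.64 FPKM over F344_Nic rats, of which 4 and 8 were at 0. Coverage per FPKM was 3.54 and 3.37 in rats 4 and 8 and 2.27 to 2.58 in the other 10 F344_Nic rats. The level calls of ENSRNOG00000021280 held with a term for coverage per FPKM and without high coverage libraries. The part of depth in the values of rats 4 and 8 was not tested. F344_Sal rat 9 and HIV_Sal rats 1, 2, and 3, whose coverage per FPKM was also above 3, had 17.7 to 21.7 FPKM of the ENSRNOG00000021280 isoform.

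In the other regions the F344_Nic medians of these genes lay nearer to those of F344_Sal. The isoform of ENSRNOG00000021280 had medians of 9.13 FPKM (F344_Sal) and 12.3 (F344_Nic) among HIP libraries, and 13.3 and 11.4 among STR libraries. The annotated FPKM of ENSRNOG00000031358 was 6.12 and 7.23 for the HIP and 8.88 and 8.56 for the STR. Whether the regions differ was not tested.

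For ENSRNOG00000015277, PFC rats held mostly the annotated or mostly the unannotated form. The unannotated isoform had medians of 13.1 FPKM (F344_Sal, 4.75 to 15.7, 10 rats), 80.6 (F344_Nic, 7.47 to 108, 11 rats), 12.3 (HIV_Sal, 7.33 to 100.6, 11 rats), and 10.3 (HIV_Nic, 7.57 to 14.2, 9 rats). Its annotated transcript was listed at 0 in 7 F344_Nic and 3 HIV_Sal rats and in no other, so the groups overlapped. The gene's total had medians of 84.3, 89.7, 83.1, and 82.7 FPKM in the same order of groups. The interaction was -2.73 (SE 0.70, adjusted p = 0.0167 by limma). It was lost with isoforms that were not assembled set to 0 (adjusted p = 0.263) and with the replicate number as a block (adjusted p = 0.0625). Both states were present in the other regions too, where annotated FPKM of F344_Nic rats ran from 0 to 73.5 (HIP) and from 0 to 98.5 (STR).

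For ENSRNOG00000018289, the unannotated isoform had PFC medians of 80.7 FPKM (F344_Sal, 57.4 to 130, 10 rats), 21.2 (F344_Nic, 18.4 to 65.1, 10 rats), 58.8 (HIV_Sal, 45.2 to 95.4, 8 rats), and 83.5 (HIV_Nic, 44.1 to 194, 10 rats). Of the F344_Nic rats, 7 lay below all others and rats 4, 7, and 10 lay among them. The annotated transcript was above 0 in 9 of 12 F344_Nic rats and in 4 of 12 rats of each other group. The gene's total had medians of 95.9, 77.1, 108, and 96.8 FPKM in the same order of groups. The interaction was 1.84 (SE 0.35, adjusted p = 0.000409 by limma), and it was lost with isoforms that were not assembled set to 0 (adjusted p = 0.696).

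**Figure D5:**
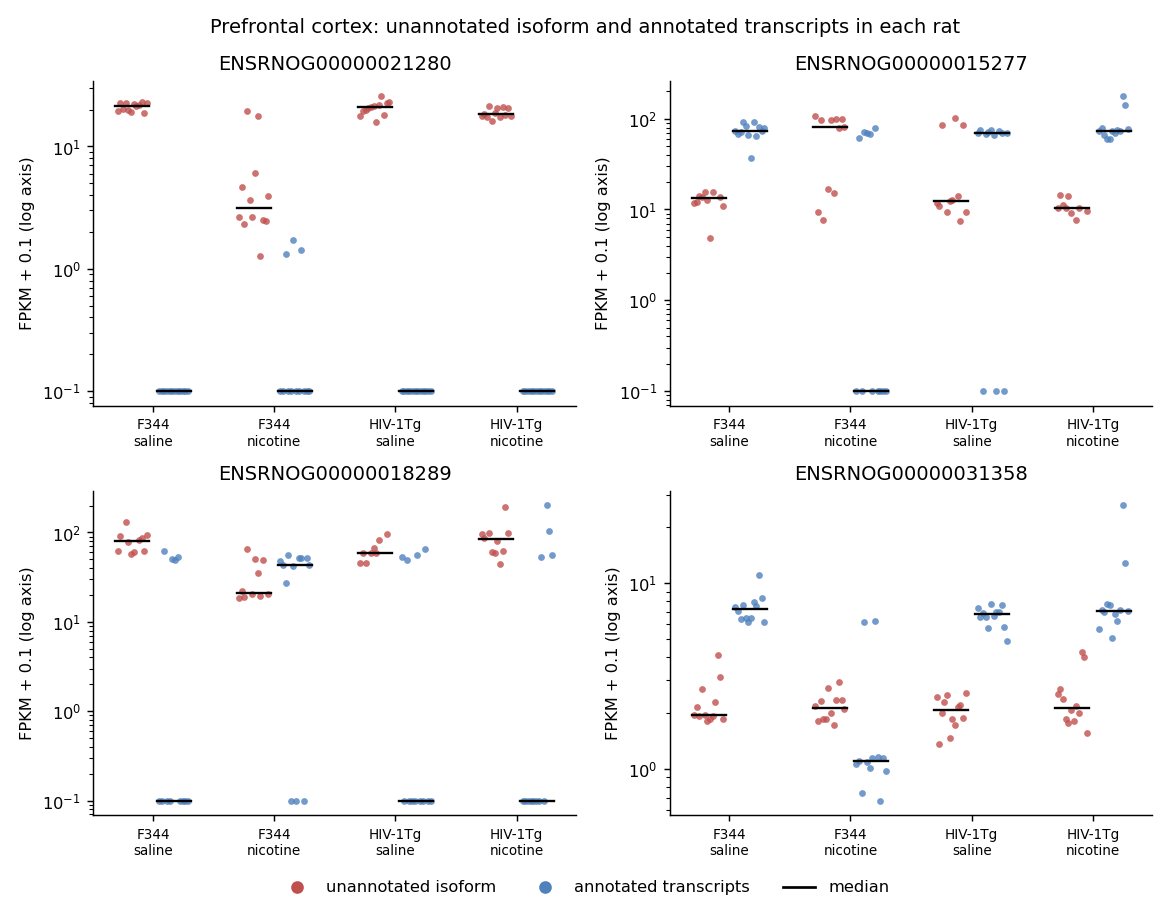
FPKM plus 0.1 (y axes, log scale) of the unannotated isoform and the summed annotated transcripts in each PFC rat of the 4 groups (x axes) for ENSRNOG00000021280, ENSRNOG00000015277, ENSRNOG00000018289, and ENSRNOG00000031358, with black lines at the medians over samples with a value. For ENSRNOG00000021280 the medians are 21.5, 3.07, 20.8, and 18.2 FPKM, and 2 F344_Nic rats lie with the other groups.

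Other PFC calls were smaller or less stable. The isoform with an interaction of 1.06 (adjusted p = 0.00127 by limma) was smaller but stable. Its strain (0.46), nicotine (-0.56), and interaction calls held in all 13 alternative fits and without any single library. The same held for an isoform with a strain difference of -0.62 (adjusted p = 0.00114 by limma). Medians of the latter were 4.08 FPKM (F344_Sal), 7.54 (F344_Nic), 3.66 (HIV_Sal), and 4.00 (HIV_Nic). The isoform of ENSRNOG00000024704, whose annotated transcript was at 0 in all 48 samples, had medians of 17.4 FPKM (F344_Sal, 7.49 to 21.4), 7.05 (F344_Nic, 3.38 to 11.5), 16.9 (HIV_Sal, 9.26 to 19.9), and 16.5 (HIV_Nic, 13.2 to 21.3). The saline medians were close and that of F344_Nic alone was low. The nicotine difference was -0.59 (SE 0.12, adjusted p = 0.00121 by limma) and the interaction 1.32 (SE 0.24, adjusted p = 0.000179), and both were lost with isoforms that were not assembled set to 0 (adjusted p = 0.821 and 0.360). Its strain difference was 0.60 (SE 0.12, adjusted p = 0.000845 by limma), a call lost in the same fit (adjusted p = 0.445). The isoform was assembled in 11, 9, 11, and 12 rats of the groups in the order above. The zeros thus fell mostly on F344_Nic rats, whose median was already the lowest, and a lost call does not show a smaller difference. The isoform of ENSRNOG00000015018 had lower medians in HIV-1Tg rats under both drugs, at 38.3 FPKM (F344_Sal, 11.02 to 58.1), 29.2 (F344_Nic, 9.97 to 54.5), 15.2 (HIV_Sal, 8.36 to 32.5), and 12.9 (HIV_Nic, 8.21 to 48.3). The ranges overlapped. Its difference was -0.87 (SE 0.23, adjusted p = 0.0161 by limma) over 47 assembled samples, and it was lost when the missing sample was set to 0 (adjusted p = 0.796). Its share had medians of 41.2%, 33.6%, 16.0%, and 16.2% in the same order, beside annotated medians of 49.9, 52.1, 66.0, and 62.5 FPKM.

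The isoform of ENSRNOG00000043465 was lower in PFC of HIV-1Tg rats by a log2 difference of -0.81 (SE 0.23, adjusted p = 0.0376 by limma), a call lost when any 1 of 20 libraries was left out (5 F344_Sal, 6 F344_Nic, 4 HIV_Sal, and 5 HIV_Nic). Its annotated transcript had medians of 26.2, 32.3, 15.8, and 12.6 FPKM (F344_Sal, F344_Nic, HIV_Sal, and HIV_Nic), so both forms had lower medians in HIV-1Tg rats, while the isoform's median share was 51.4%, 51.8%, 56.0%, and 56.0%. With nicotine, that of ENSRNOG00000021153 had a difference of -0.97 (SE 0.27, adjusted p = 0.0491), lost without any 1 of 26 libraries (6 F344_Sal, 7 F344_Nic, 7 HIV_Sal, and 6 HIV_Nic) and in 9 of 11 alternative fits. That of ENSRNOG00000010526 rose by 0.46 (SE 0.12, adjusted p = 0.0285), lost without F344_Sal rat 4 or 11 or HIV_Nic rat 1, 4, or 12. Its direction turned to -0.21 with isoforms that were not assembled set to 0. The total of that gene had medians of 13.3, 13.7, 14.3, and 13.8 FPKM in the order of groups given above. The interaction of ENSRNOG00000014509, assembled in 30 samples, was -1.63 (SE 0.46, adjusted p = 0.0461), lost without any 1 of 23 libraries (5 F344_Sal, 6 F344_Nic, 7 HIV_Sal, and 5 HIV_Nic). With isoforms that were not assembled set to 0, the adjusted p by limma was 0.169 for ENSRNOG00000043465, 0.945 for ENSRNOG00000021153, and 0.876 for ENSRNOG00000014509. The call of ENSRNOG00000043465 held in 9 of 13 alternative fits and that of ENSRNOG00000014509 in 6 of 12, both being lost also with no filter (0.0755 and 0.0836) and with the replicate number as a block (0.0635 and 0.192).

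The ratio of unannotated to annotated FPKM was tested for 2043 PFC rows. Of 1817 kept isoforms, 5 differed between strains (0.294% of all rows), with 3 higher in HIV-1Tg (0.196%) and 2 lower (0.0979%). With nicotine 3 differed (0.245%), with 1 higher (0.0489%) and 2 lower (0.196%). The interaction passed for 3 (0.196%), with 2 above 0 (0.147%) and 1 below (0.0489%). Where the annotated transcript is listed at 0 in most rats, as for ENSRNOG00000021280 and ENSRNOG00000013076, such a ratio depends on the pseudocount and its size is not given. For 2 of the 5 strain calls, among them ENSRNOG00000024704, it is at 0 in all 48 samples, and the ratio only repeats the level. The same holds for ENSRNOG00000024704 with nicotine and for the interaction. For ENSRNOG00000031358, the log2 ratio differed by -1.23 between strains (SE 0.20, adjusted p = 0.000206 by limma), by 1.16 with nicotine (SE 0.20, adjusted p = 0.000633), and by -2.44 for the interaction (SE 0.39, adjusted p = 0.000261). Its unannotated isoform had a median share of 68.0% over F344_Nic rats and of 22.3% to 22.5% over the other groups. This isoform was assembled in all 48 samples, so setting unassembled isoforms to 0 left its log2 differences as they were. The adjusted p of that fit across all rows was 0.160, 0.161, and 0.133 by limma.

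Among HIP isoforms, 2 of 1753 differed between strains (0.0599% of 11685 rows), 1 higher in HIV-1Tg (0.0171%) and 1 lower (0.0428%). The isoform of ENSRNOG00000012440 had medians of 6.89 FPKM (F344_Sal, 4.26 to 9.39), 4.59 (F344_Nic, 2.87 to 9.31), 10.3 (HIV_Sal, 6.04 to 15.4), and 8.54 (HIV_Nic, 4.42 to 19.2). The difference was 0.73 (SE 0.14, adjusted p = 0.0198 by limma), lost without F344_Nic rat 3 or 12 and, with the replicate number as a block, at an adjusted p of 0.0626. The isoform of ENSRNOG00000026528 had medians of 28.6 FPKM (F344_Sal, 7.86 to 44.1), 31.0 (F344_Nic, 13.2 to 49.2), 3.65 (HIV_Sal, 2.96 to 37.1), and 9.76 (HIV_Nic, 2.50 to 44.9). HIV-1Tg rats thus held both low and high values. The difference was -1.69 (SE 0.36, adjusted p = 0.0429 by limma), lost without any 1 of 32 libraries (9 F344_Sal, 10 F344_Nic, 6 HIV_Sal, and 7 HIV_Nic). With isoforms that were not assembled set to 0, the adjusted p was 0.507 for ENSRNOG00000012440 and 0.959 for ENSRNOG00000026528. The latter held in 7 of 12 alternative fits and was also lost with a pseudocount of 0.01 (adjusted p = 0.0515), no filter (0.0964), the replicate number as a block (0.0626), and a term for coverage per FPKM (0.0588). With low values and outliers removed, 4 HIP isoforms differed between strains and 2 for the interaction. By limma, 0 of 1753 passed for nicotine and 0 for the interaction (0% of all rows in both). Before adjustment, 89 and 137 had p under 0.05, against 4.8% and 8.96% of all rows. The ratio differed between strains for 1 of 1744 isoforms, that of ENSRNOG00000026528 (0.0524% of 1907 rows). Its annotated transcript was at 0 in all 44 samples in which the isoform was assembled, so this only repeats the level call, and it was lost without any 1 of 30 libraries (10 F344_Sal, 9 F344_Nic, 6 HIV_Sal, and 5 HIV_Nic). It differed for 0 isoforms with nicotine and 0 for the interaction by limma (0% of rows), where 77 and 107 had p under 0.05 before adjustment (4.46% and 5.98% of rows).

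Among STR isoforms, 3 of 1811 differed between strains by limma, all lower in HIV-1Tg (0.144% of 11836 rows). The isoform of ENSRNOG00000039997 had medians of 4.66 FPKM (F344_Sal, 2.25 to 7.16, 12 rats), 3.53 (F344_Nic, 1.39 to 6.64, 12 rats), 1.95 (HIV_Sal, 0.931 to 3.77, 8 rats), and 1.62 (HIV_Nic, 1.00 to 3.19, 9 rats). The difference was -0.90 (SE 0.19, adjusted p = 0.0279), lost without F344_Nic rat 7, HIV_Sal rat 2 or 7, or HIV_Nic rat 2. It held in 9 of 13 alternative fits and was lost with no filter (adjusted p = 0.0622), median scaling (0.0526), the replicate number as a block (0.0717), and a term for coverage per FPKM (0.323). The isoform of ENSRNOG00000020583 had medians of 10.2, 10.3, 7.91, and 6.50 FPKM in the same order of groups, a difference of -0.54 (SE 0.10, adjusted p = 0.00744 by limma), lost with isoforms that were not assembled set to 0 (adjusted p = 0.696). Its annotated transcript was above 0 in 2, 5, 8, and 8 of 12 rats. With a term for coverage per FPKM, 0 of the 3 calls passed by limma, with adjusted p of 0.323, 0.0676, and 0.37. With low values and outliers removed, 25 STR isoforms differed between strains and 14 with nicotine.

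With nicotine, 1 of 1811 STR isoforms differed by limma, and it was lower (0.0591% of all rows). That of ENSRNOG00000007334 had medians of 17.7 FPKM (F344_Sal, 8.78 to 26.4, 12 rats), 6.21 (F344_Nic, 3.16 to 21.9, 10 rats), 17.7 (HIV_Sal, 4.71 to 23.1, 11 rats), and 6.52 (HIV_Nic, 2.25 to 14.8, 11 rats). Nicotine groups had lower medians in both strains, with overlapping ranges. The difference was -1.12 (SE 0.23, adjusted p = 0.0334), lost without any 1 of 16 libraries (2 F344_Sal, 6 F344_Nic, 5 HIV_Sal, and 3 HIV_Nic) and with isoforms that were not assembled set to 0 (adjusted p = 0.666). It was also lost with the replicate number as a block (adjusted p = 0.0520), array weights (0.0705), a term for coverage per FPKM (0.0879), and high coverage libraries left out (0.0531), and it held in 8 of 13 alternative fits. Its annotated FPKM had medians of 8.77, 6.64, 8.18, and 8.50. The gene's total, with all class code j and = transcripts, had medians of 51.8, 42.6, 47.7, and 48.6 FPKM in the same order of groups. The interaction passed for 0 of 1811 by limma (0% of all rows), with 69 at p under 0.05 before adjustment (4.95% of all rows). The ratio passed for 0 of 1797 isoforms in each of the 3 STR comparisons by limma (0% of 2007 rows), with 105, 101, and 65 at p under 0.05 before adjustment (5.58%, 5.28%, and 3.59% of rows).

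The study's looser limit was met between strains by 109 PFC, 88 HIP, and 103 STR isoforms (5.97%, 5.02%, and 5.69%), against 7.63%, 3.29%, and 5.38% of all rows. With nicotine it was met by 88, 75, and 111 isoforms (4.82%, 4.28%, and 6.13%), against 7.27%, 3.48%, and 4.87%. The interaction met it for 114, 133, and 68 isoforms (6.25%, 7.59%, and 3.75%), against 10.1%, 7.73%, and 4.39%. The study applied this limit with an ANOVA and a Tukey-Kramer post hoc analysis, after removing low values and outliers. Here it was applied to the limma comparisons, so the counts are not counterparts of the study's own.

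Detection was compared between strains by Fisher's exact test, two-sided, on the samples in which an isoform was assembled among 24 HIV-1Tg and 24 F344 rats. All class code j rows with a value in at least 6 samples were tested. After adjustment 0 kept isoforms passed in each region, against 0% of 18899, 18742, and 19268 rows. Before adjustment p was under 0.05 for 21, 24, and 23 kept isoforms (1.15%, 1.37%, and 1.27%), against 3.08%, 2.58%, and 3% of all rows tested. The rule asks for at least 6 rats of each group, which limits how far the kept isoforms could differ here. Their 0 calls and lower percentages are therefore not read as equal detection in the strains.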

How the data were processed

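RNA was sequenced from punches of 3 brain regions, in 144 samples. By the study's methods each group held 12 rats and the regions came from the same brains. The authors mapped paired-end reads to rat genome Rn4 with TopHat and Bowtie (1.04 in the submitters' processing notes), assembled transcripts with Cufflinks, and compared them with the Ensembl annotation. The deposited tables list, per assembled transcript and sample, the authors' FPKM with its interval, coverage, and length. FPKM holds no read counts, and a cell is empty where the isoform was not assembled. Cells with several transcripts (10674 PFC, 10290 HIP, and 10098 STR) were summed.

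Levels, log2(FPKM + 0.1), and ratios, log2 of unannotated over annotated FPKM with 0.1 added to each, were fitted per region with limma 3.58.1 in R 4.3.3, with empty cells left out and Benjamini-Hochberg adjustment over all rows tested. Detection was tested with SciPy 1.17.1 under Python 3.11.15. Scripts were tested on simulated data.

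Named are called isoforms (of the 5 largest differences per comparison and direction, at most 2 rising and 2 falling identifiers), the most abundant, those of lowest share, and Wnt7a. The tables pair no identifier with a gene name. Wnt7a and 7 other genes were linked, after seeing the data, by group means the study prints, and the 7 others had no kept isoform. Gene lists and cell type markers fixed by symbol could therefore not be analysed. Members and lists were chosen with earlier results of these data known. No Rn4 genome was used here, so no sequences are given.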

Additional observations from a re-analysis of the deposited data

Results flagged for a closer look

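The nicotine response of 9 PFC isoforms differed between strains at an adjusted p under 0.05 by limma (2.88% of all rows did), and these results are listed because the interaction term itself was tested. On the log2 scale the difference, HIV-1Tg minus F344, was 2.26 for ENSRNOG00000021280, 1.84 for ENSRNOG00000018289, -2.73 for ENSRNOG00000015277, and -1.63 for ENSRNOG00000014509. For the 5 other isoforms it was 1.35, 1.32, 1.06, -1.04, and -0.60. The ratio of unannotated to annotated FPKM gave an interaction of -2.44 for ENSRNOG00000031358. The level results of ENSRNOG00000021280 and of the isoform at 1.06 held in each of 13 alternative fits. That of ENSRNOG00000014509 held in 6 of 12 and was lost without any 1 of 23 libraries (5 F344_Sal, 6 F344_Nic, 7 HIV_Sal, and 5 HIV_Nic). That of the isoform at -0.60 held in 9 of 13 and was lost without any 1 of 20 (4 F344_Sal, 5 F344_Nic, 8 HIV_Sal, and 3 HIV_Nic). The 6 others, the ratio included, held in all but 1 or 2 alternative fits and without any single library.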

How the results depend on the processing

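Asking for 9 of 12 rats per group would keep 710 PFC, 710 HIP, and 714 STR isoforms. Counts of called isoforms that moved by more than 1.5 times are given for level and then ratio, and their cause was not tested. PFC strain levels gave 4 calls with unassembled isoforms set to 0, 13 with array weights, 55 with low values and outliers removed, and 11 without the libraries apart (HIV_Nic rats 10 and 11 of the PFC, HIV_Nic rat 4 of the HIP, and HIV_Sal rat 1 of the STR, as an earlier analysis of these data named them, although the last held 1479 kept isoforms here, above the median). PFC nicotine levels gave 12 with array weights and 36 with outliers removed. PFC interaction levels gave 4 with unassembled isoforms set to 0, 39 with outliers removed, 14 without the libraries apart, and 17 with a term for coverage per FPKM. PFC ratios between strains gave 0 with unassembled isoforms set to 0, 8 with outliers removed, and 9 without high coverage libraries. With nicotine PFC ratios gave 0, 5 with array weights, 10 with outliers removed, and 5 without high coverage libraries, and for the interaction 0, 6, 5, and 6, with 5 under the coverage term. HIP strain levels gave 1 with a pseudocount of 0.01 or no filter, 0 with unassembled isoforms set to 0, and 4 with outliers removed, and the HIP interaction gave 2 with outliers removed. HIP strain ratios gave 0 with a pseudocount of 1, unassembled isoforms at 0, no filter, the nearest annotated transcript, or the coverage term, and 2 with outliers removed or a term for rats 1 to 6. HIP interaction ratios gave 3 with outliers removed. STR strain levels gave 1 with no filter or median scaling, 25 with outliers removed, and 0 with the coverage term. STR nicotine levels gave 0 with unassembled isoforms at 0, array weights, the coverage term, or without high coverage libraries, and 14 with outliers removed. STR strain ratios gave 1 with unassembled isoforms at 0 and 4 with array weights, and STR nicotine ratios 1 with outliers removed. Direction reversed for 3 results with unassembled isoforms set to 0, to -0.21 (ENSRNOG00000010526), 0.11, and 0.13, among called isoforms, and for Wnt7a, which was not called, to -1.62 (PFC interaction), -0.81 (HIP interaction), and 0.45 (HIP strain). The terms for coverage and for rats 1 to 6, and leaving out high coverage libraries, were chosen after seeing the data. Taking the highest class code j row of a feature in place of their sum was not run, since each kept isoform is 1 row. Transcripts within a cell and annotated rows of a gene were summed throughout.

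Same-numbered rats of different groups did not deviate together (r from -0.040 to 0.054 for the PFC, -0.050 to 0.058 for the HIP, and -0.071 to 0.106 for the STR, 72 pairs each), and 3, 7, and 5 of 48 samples correlated best with their own number, so the numbers were not read as pairs. With the replicate number as a block, the level gave 9, 6, and 6 PFC calls (strain, nicotine, and interaction), 0 HIP strain calls, 1 STR strain call, and 0 STR nicotine calls, and the ratio gave 4, 3, and 2 PFC calls and 0 HIP strain calls.

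Leaving out 1 library at a time, level counts ranged for strain from 5 to 10 (PFC), 0 to 3 (HIP), and 1 to 5 (STR), for nicotine from 4 to 8, 0 to 0, and 0 to 1, and for the interaction from 7 to 13, 0 to 0, and 0 to 0. Ratio counts ranged for strain from 5 to 6, 0 to 2, and 0 to 1, for nicotine from 3 to 5, 0 to 0, and 0 to 0, and for the interaction from 2 to 5, 0 to 1, and 0 to 1. The STR strain count was 1 without F344_Nic rat 7 or HIV_Nic rat 2 and 5 without F344_Sal rat 10, and the HIP strain count was 0 without F344_Nic rat 3 or 12. The PFC ratio interaction count was 5 without F344_Nic rat 4 or 8 or HIV_Sal rat 5, and the PFC ratio nicotine count was 5 without HIV_Sal rat 1. Ratio counts rose from 0 to 1 without F344_Sal rat 11 (HIP interaction), HIV_Sal rat 6 (STR interaction), or HIV_Nic rat 4 (STR strain). Read counts are not given beside FPKM. The deposited interval of an FPKM reached a median of 16.9%, 18.7%, and 18.4% of the value to either side over kept isoforms (PFC, HIP, and STR).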
